A study of Homo sapiens with 6 samples.

Results

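The circadian clock genes examined here are CLOCK, PER1, PER2, PER3, CRY1, CRY2, NR1D1, NR1D2, DBP and TEF, which are 10 of the 60671 genes counted in each library. They were taken from a list of gene symbols. The rule itself uses no measured value, but the list was chosen with earlier results of these data known. All 10 passed the filter on low counts. Their RNA was measured by RNA sequencing in NCI-H69, a neuroendocrine line established from human small cell lung cancer and labelled as wild type. Cells received GNF5, an allosteric inhibitor of the ABL kinases, or the vehicle DMSO for 48 h, with 3 libraries in each group. The label of each GNF5 sample gives 20 µM, while the treatment text gives the same figure in millimolar. The labels do not say whether the 3 replicates of a group were separate cultures, so the tests measure only the spread between these libraries, which may be technical. The title of the series concerns transcription-replication conflicts after loss of ABL activity.

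The clock is a loop of transcription factors that runs in most cells. CLOCK and its partner BMAL1 bind E-boxes in DNA and switch on the PER and CRY genes, whose proteins return to block them. The same pair switches on NR1D1 and NR1D2, encoding the nuclear receptors REV-ERB alpha and beta, which repress BMAL1 and CLOCK against the ROR receptors. DBP and TEF are output factors of the PAR bZIP family that bind D-boxes, also present in PER genes. All libraries were collected at 1 time of treatment, so a shift in the phase of a rhythm and a change in mean level cannot be told apart.

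All 10 clock genes rose with GNF5. The largest changes were in PER3 (2.19-fold), NR1D1 (2.15-fold) and PER2 (1.92-fold), and the smallest was in CRY1 (1.11-fold). Each passed edgeR's quasi-likelihood test, and in each the 3 GNF5 values lay above the 3 DMSO values. Of the 20734 genes tested, 31.0% passed in the upward direction and 61.6% in either, while 33.1% lay wholly above DMSO, 32.8% wholly below, and 65.9% one or the other. The median log2 fold change was 0.59 for the 10 genes and 0.01 for all genes tested. These 10 were chosen with earlier results of these data known. A second clock list, which holds BMAL1, had 4 genes that rose and 5 that fell. Against a 1.5-fold change in place of no change (edgeR's glmTreat), 4 of the 10 passed, namely NR1D1 (adjusted p = 4.48e-08), PER2 (5.57e-07), PER3 (1.66e-05) and CRY2 (0.00075), while 5.98% of all tested genes passed upward, 7.52% downward and 13.5% in either direction. In bulk RNA, a change in the number of cells of some type and a change in RNA per cell cannot be told apart.

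**Figure D1:**
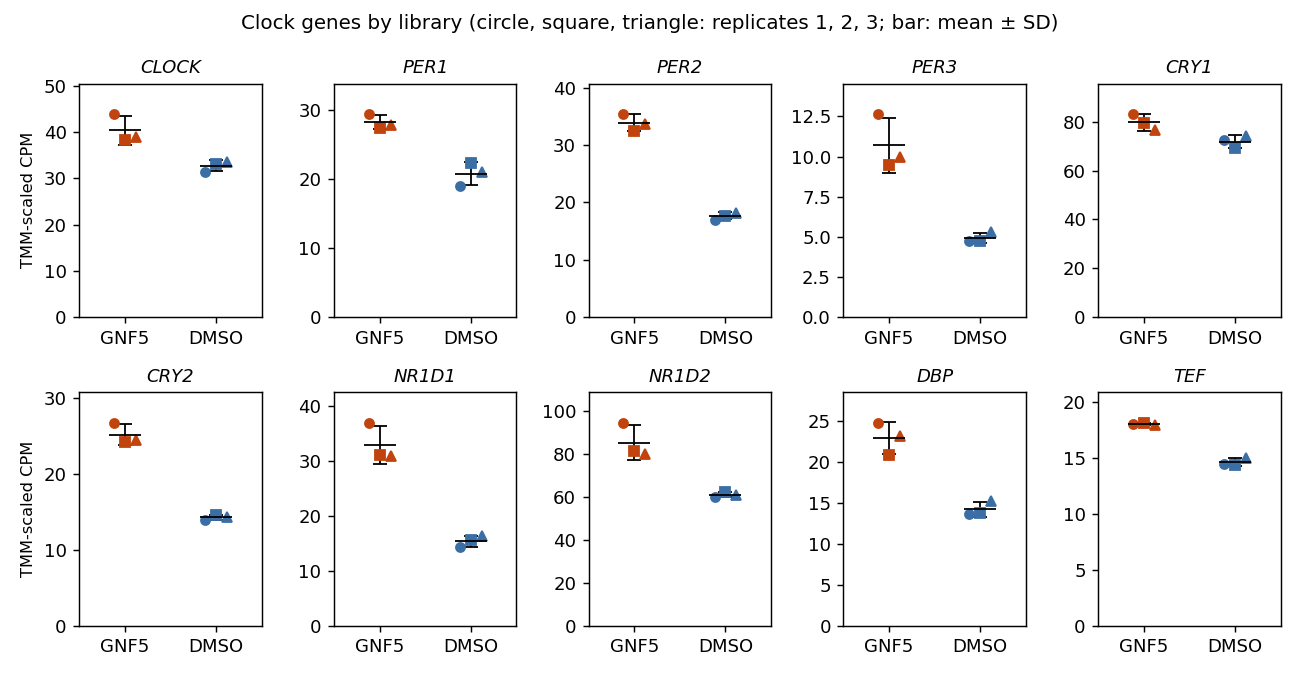
Counts per 1000000 counts (CPM, TMM-scaled) of the 10 clock genes on vertical axes that start at 0, with 3 GNF5 and 3 DMSO libraries as points and the mean ± SD as bars. In every panel the GNF5 points lie above the DMSO points, and in 9 of the 10 the circle of GNF5 replicate 1 is the highest.

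Of 10 neuroendocrine markers of small cell lung cancer, all were tested, 3 rose, 3 fell and 4 did not pass, and their summed level was 7255 to 7395 CPM with GNF5 and 5737 to 5916 with DMSO. INSM1, a transcription factor of neuroendocrine cells, had 1464 ± 45.8 CPM with GNF5 and 1403 ± 34.0 with DMSO (SD, n = 3 each), and CHGA, a secretory granule protein, had 254 ± 17.2 CPM with GNF5 and 247 ± 3.77 with DMSO. MYCN (1.56-fold), NCAM1 (1.51-fold) and CHGB (1.25-fold) rose. MYCN, at 3448 ± 51.6 CPM with GNF5 and 2213 ± 62.1 with DMSO, made up most of the difference in the sum. DDC, the decarboxylase of amine synthesis, fell to 104 ± 3.21 CPM with GNF5, against 249 ± 10.5 with DMSO, and SYP fell to 150.4 ± 4.11 CPM with GNF5, against 182 ± 10.1 with DMSO. NEUROD1, which also fell, was low, at 0.755 ± 0.119 CPM with GNF5 and 1.63 ± 0.342 with DMSO. Total counts ran from 46148701 to 58771023 in GNF5 libraries and from 56467189 to 60697602 in DMSO libraries. Of 5 fibroblast markers, COL3A1 had 0 counts in all 6 libraries and LUM stayed at 0.277 ± 0.0805 CPM with GNF5 and 0.333 ± 0.147 with DMSO. The summed level of the 5 was 64.7 to 71.9 CPM with GNF5 and 120.0 to 125.4 with DMSO, nearly all of it COL1A2. Of 5 leukocyte markers CD3E had 0 counts throughout, and their sum was 3.18 to 4.05 CPM with GNF5 and 4.6 to 4.88 with DMSO, mostly CD14 and PTPRC. COL1A2 and PTPRC were lower with GNF5 and COL1A1 was higher, and the part of these marker changes in the clock gene results was not tested.

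Among the GNF5 libraries, replicate 1 had the highest value of 9 of the 10 clock genes, TEF being the exception. The 10 genes summed to 405.9, 363.1 and 363.6 CPM in the GNF5 libraries and to 261.1, 268.1 and 274.1 CPM in the DMSO libraries. All 10 passed the edgeR test again without GNF5 replicate 1. Their log2 fold changes were then 0.12 for CRY1 (edgeR adjusted p = 0.0169) and 0.24 for CLOCK, up to 0.99 for PER3 and 1.01 for NR1D1.

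The promoters of these genes are known for E-boxes, so RefSeq promoter windows (GRCh38.p14, 250 bases before to 50 after a start site) were searched on both strands. The perfect E-box CACGTG lay in windows of PER1, NR1D2 and TEF, and of 8.77% of all genes. The E-prime box CACGTT lay in windows of CLOCK, PER2, CRY1, CRY2 and NR1D1, and of 6.44% of all genes. Thus 8 of the 10 genes held one or the other, and 14.5% of the 27305 genes in the promoter table did. The D-box TTANGTAA was found in PER2, PER3 and NR1D2, and in 2.71% of all genes. Stretches of 60 bases around these sites are shown so that the boxes can be compared, with the E-box or E-prime box in capitals, or the D-box for PER3, which had neither E-box. An E-prime box on the other strand reads AACGTG. The stretch of CRY2 includes 22 exon bases of the gene model, and the others include 0. Each stretch runs 5′ to 3′ along the gene.
CLOCK (chr4:55546087-55546146, minus strand): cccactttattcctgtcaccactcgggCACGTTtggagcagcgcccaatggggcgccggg
PER1 (chr17:8152545-8152604, minus strand): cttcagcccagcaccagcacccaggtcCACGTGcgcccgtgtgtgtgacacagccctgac
PER2 (chr2:238288775-238288834, minus strand): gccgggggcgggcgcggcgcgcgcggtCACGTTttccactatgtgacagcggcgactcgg
PER3 (chr1:7784087-7784146, plus strand): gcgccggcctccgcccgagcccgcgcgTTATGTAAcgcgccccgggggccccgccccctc
CRY1 (chr12:107093606-107093665, minus strand): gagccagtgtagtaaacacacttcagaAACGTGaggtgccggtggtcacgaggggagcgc
CRY2 (chr11:45847260-45847319, plus strand): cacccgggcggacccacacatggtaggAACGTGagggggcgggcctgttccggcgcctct
NR1D1 (chr17:40100725-40100784, minus strand): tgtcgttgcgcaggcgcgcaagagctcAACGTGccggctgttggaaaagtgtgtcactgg
NR1D2 (chr3:23945939-23945998, plus strand): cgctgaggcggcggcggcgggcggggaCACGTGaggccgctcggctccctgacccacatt
TEF (chr22:41367233-41367292, plus strand): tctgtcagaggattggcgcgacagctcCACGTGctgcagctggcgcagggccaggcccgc
DBP had none of these boxes in its window. The ROR element AGGTCA was present for PER1 and CRY2 (16.5% of all genes), and TGACG, part of the cAMP element TGACGTCA, for CLOCK, PER2, CRY1, CRY2 and NR1D2 (28.4%). The full TGACGTCA (2.25% of all genes) and the CHOP-ATF4 element TGATGNAA (4.46%) were found in 0 of the 10. A match is a run of letters in this window and does not show binding.

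CLOCK (ENSG00000134852, chromosome 4, 55427903 to 55546909, GRCh38), the activator with histone acetyltransferase activity that pairs with BMAL1, rose slightly. It had 43.9, 38.3 and 39.0 CPM in GNF5 libraries, against 31.3, 33.2 and 33.6 CPM in DMSO libraries. The groups did not overlap, with GNF5 replicate 1 highest and the other GNF5 libraries close to each other. The log2 fold change was 0.31 ± 0.052 (SE, as for all log2 changes here; edgeR adjusted p = 1.01e-05), and 53.5% of tested genes changed by more in size.

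The PER genes encode the scaffold of the complex that represses CLOCK and BMAL1, and they rose by unequal amounts. PER1 (ENSG00000179094, chromosome 17, 8140472 to 8156506), which responds fast to light and hormone signals, had 29.4, 27.4 and 27.8 CPM in GNF5 libraries, against 18.9, 22.3 and 21.0 CPM in DMSO libraries. Its DMSO values were more spread than its GNF5 values, and the log2 fold change was 0.44 ± 0.058 (edgeR adjusted p = 1.61e-07). PER2 (ENSG00000132326, chromosome 2, 238244044 to 238290102), mutated in a familial form of advanced sleep phase, had 35.4, 32.4 and 33.7 CPM in GNF5 libraries, against 17.0, 17.7 and 18.2 CPM in DMSO libraries. The lowest GNF5 value was well above the highest DMSO value, and the log2 fold change was 0.94 ± 0.054 (edgeR adjusted p = 5.64e-15). PER3 (ENSG00000049246, chromosome 1, 7784320 to 7845177), the member that the core loop needs least in mice, had 12.7, 9.46 and 10.0 CPM in GNF5 libraries, against 4.71, 4.73 and 5.29 CPM in DMSO libraries. It was the lowest of the 3 in both groups and had the largest fold change, 1.13 ± 0.10 on the log2 scale (edgeR adjusted p = 1.31e-10). In size, 9.55% of tested genes changed by more than PER3 in either direction, against 13.3% for PER2 and 38.7% for PER1. On the opposite strand, other gene models cover 16.7% of the exon bases of PER3, UTS2 among them, and the counting used strand.

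The PER2 promoter holds both kinds of clock box and is shown from 250 bases before to 20 after the start site, with the E-prime box CACGTT, the part TGACG and the D-box TTACGTAA in capitals.
PER2 (chr2:238288591-238288860, minus strand): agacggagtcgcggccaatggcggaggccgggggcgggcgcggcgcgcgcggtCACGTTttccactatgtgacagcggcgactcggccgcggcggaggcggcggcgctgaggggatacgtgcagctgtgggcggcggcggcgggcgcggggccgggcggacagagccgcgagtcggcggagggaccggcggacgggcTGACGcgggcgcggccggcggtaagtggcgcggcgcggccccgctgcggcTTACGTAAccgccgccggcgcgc
The E-prime box began 197 bases before the start site and the D-box spanned it.

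The cryptochromes bind CLOCK and BMAL1 directly and shut them off. CRY1 (ENSG00000008405, chromosome 12, 106991364 to 107093549), the stronger repressor in mice, had 83.3, 79.5 and 76.6 CPM in GNF5 libraries, against 72.6, 69.2 and 74.2 CPM in DMSO libraries. The lowest GNF5 and highest DMSO values were close, and the log2 fold change was 0.15 ± 0.041 (edgeR adjusted p = 0.00252). CRY2 (ENSG00000121671, chromosome 11, 45847118 to 45883248), the second cryptochrome, had 26.8, 24.3 and 24.5 CPM in GNF5 libraries, against 13.9, 14.6 and 14.3 CPM in DMSO libraries. CRY2 rose by 0.82 ± 0.060 on the log2 scale (edgeR adjusted p = 1.79e-12). Of all tested genes 17.3% changed by more than CRY2, and 75.3% by more than CRY1.

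The REV-ERB receptors repress BMAL1. Of their genes, NR1D2 had more CPM in both groups, a measure not scaled for length, and rose less. NR1D1 (ENSG00000126368, chromosome 17, 40092793 to 40100589) had 37.0, 31.1 and 30.9 CPM in GNF5 libraries, against 14.3, 15.7 and 16.3 CPM in DMSO libraries. Every GNF5 value was far above every DMSO value, and the log2 fold change was 1.10 ± 0.066 (edgeR adjusted p = 3.76e-14). NR1D2 (ENSG00000174738, chromosome 3, 23945286 to 23980617) had 94.7, 81.6 and 79.9 CPM in GNF5 libraries, against 60.2, 62.5 and 60.8 CPM in DMSO libraries. Its DMSO libraries were tight and GNF5 replicate 1 stood above the other GNF5 libraries, with a log2 change of 0.48 ± 0.050 (edgeR adjusted p = 6.28e-09). Exons of NR1D1 overlap THRA on the opposite strand over 18% of their bases.

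The NR1D2 promoter is shown because it holds a pair of perfect E-boxes and a D-box, which reads TTACATAA on the strand shown. Capitals mark these and the part TGACG, from 250 bases before to 20 after the start site.
NR1D2 (chr3:23945871-23946140, plus strand): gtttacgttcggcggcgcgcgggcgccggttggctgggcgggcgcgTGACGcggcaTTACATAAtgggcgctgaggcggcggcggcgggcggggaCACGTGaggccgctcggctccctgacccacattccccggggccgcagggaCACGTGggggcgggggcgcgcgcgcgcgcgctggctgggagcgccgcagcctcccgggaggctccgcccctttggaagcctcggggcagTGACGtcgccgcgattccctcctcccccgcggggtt

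The PAR bZIP factors DBP and TEF carry the rhythm to other genes through D-boxes. DBP (ENSG00000105516, chromosome 19, 48630030 to 48637379), whose RNA has one of the strongest daily rhythms in mouse liver, had 24.8, 20.8 and 23.2 CPM in GNF5 libraries, against 13.6, 13.8 and 15.3 CPM in DMSO libraries. The groups were clearly apart, with a log2 change of 0.69 ± 0.068 (edgeR adjusted p = 6.76e-10), although DBP did not pass against a 1.5-fold change (glmTreat adjusted p = 0.121). TEF (ENSG00000167074, chromosome 22, 41367333 to 41399326) had 18.02, 18.1 and 17.9 CPM in GNF5 libraries, against 14.5, 14.4 and 15.0 CPM in DMSO libraries. The GNF5 values of TEF were nearly equal and all above the DMSO values, and its log2 fold change was 0.30 ± 0.062 (edgeR adjusted p = 0.00012). Exons of DBP overlap SPHK2 on the opposite strand over 10.2% of their bases.

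Estimated changes differed in size between some related clock genes. Each of 7 ratios of counts was compared between groups with a two-sided exact permutation test over samples. With 3 against 3 libraries that test cannot give a p below 0.1, so no ratio could be called different. How often ratios of other gene pairs fail to overlap was not measured. The ratio of NR1D1 to NR1D2 was 0.391, 0.381 and 0.387 in GNF5 libraries, against 0.237, 0.251 and 0.268 in DMSO libraries, a log2 difference of 0.62 ± 0.053 (SE; exact permutation p = 0.1, adjusted over the 7 ratios 0.14). The 3 GNF5 values of this ratio thus all lay above the 3 DMSO values. The ratio of CRY1 to CRY2 was 3.11, 3.28 and 3.13 in GNF5 libraries, against 5.21, 4.73 and 5.19 in DMSO libraries, a log2 difference of -0.67 ± 0.052 (exact permutation p = 0.1, adjusted 0.14). The ratio of PER1 to PER2 was 0.83, 0.845 and 0.827 in GNF5 libraries, against 1.12, 1.26 and 1.154 in DMSO libraries, a log2 difference of -0.50 ± 0.054 (exact permutation p = 0.1, adjusted 0.14). The ratio of PER1 to PER2 was thus below 1 in every GNF5 library and above 1 in every DMSO library.

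The ratios of DBP to TEF and of PER3 to PER2 had smaller estimated differences. The ratio of DBP to TEF was 1.37, 1.147 and 1.29 in GNF5 libraries, against 0.944, 0.957 and 1.02 in DMSO libraries, a log2 difference of 0.38 ± 0.083 (exact permutation p = 0.1, adjusted 0.14). The ratio of PER3 to PER2 was 0.357, 0.292 and 0.297 in GNF5 libraries, against 0.277, 0.268 and 0.29 in DMSO libraries, a log2 difference of 0.17 ± 0.10 (exact permutation p = 0.1, adjusted 0.14). Those groups nearly touched. NFIL3 competes with DBP for D-boxes, and the ratio of NFIL3 to DBP was 1.25, 1.45 and 1.26 in GNF5 libraries, against 1.36, 1.36 and 1.29 in DMSO libraries. That log2 difference was -0.02 ± 0.074 (exact permutation p = 0.8, adjusted 0.8), so no change in this ratio was detected at this spread. The ratio of CLOCK to its relative NPAS2 (log2 difference 1.34 ± 0.59, exact permutation p = 0.2, adjusted 0.233) rests on 9, 2 and 2 counts of NPAS2 in GNF5 libraries, against 6, 9 and 8 in DMSO libraries.

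**Figure D2:**
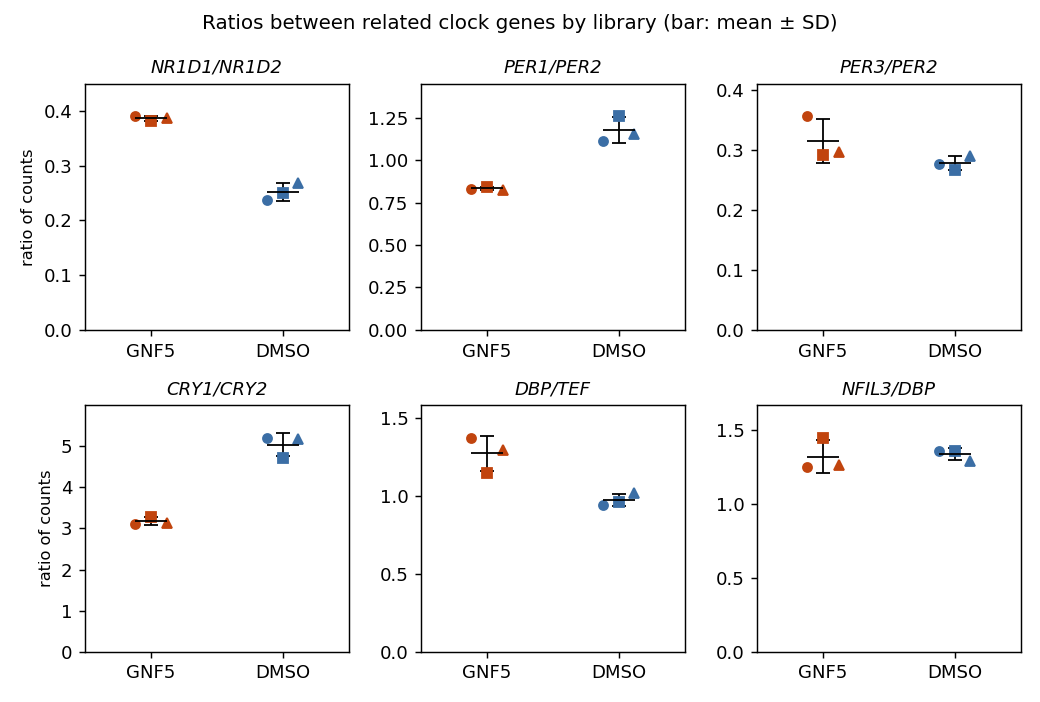
Ratios of counts between related clock genes on vertical axes that start at 0, with 3 GNF5 and 3 DMSO libraries as points and the mean ± SD as bars. The ratios of CRY1 to CRY2 and of PER1 to PER2 are lower in every GNF5 library, that of NR1D1 to NR1D2 is higher, and that of NFIL3 to DBP overlaps.

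Levels of different genes were compared per length, as TMM-scaled fragments per kilobase of exon and 1000000 counts (FPKM, mean ± SD, n = 3 in each group). The length was all exon bases of the gene model, such as 6485 for DBP, 11533 for CLOCK and 2630 for NR1D1. The order of genes therefore depends on these models, and the lengths of the transcripts present were not tested. With GNF5 the level order was CRY1 (16.7 ± 0.698), NR1D2 (14.7 ± 1.39), NR1D1 (12.6 ± 1.32), PER2 (4.93 ± 0.216), CRY2 (4.06 ± 0.224), PER1 (4.03 ± 0.148), TEF (3.83 ± 0.022), DBP (3.53 ± 0.307), CLOCK (3.5 ± 0.267) and PER3 (1.32 ± 0.211). Neighbouring ranges overlapped between CRY1 and NR1D2, NR1D2 and NR1D1, CRY2 and PER1, TEF and DBP, and DBP and CLOCK. With DMSO the level order was CRY1 (15.1 ± 0.531), NR1D2 (10.6 ± 0.201), NR1D1 (5.86 ± 0.392), TEF (3.11 ± 0.075), PER1 (2.96 ± 0.242), CLOCK (2.84 ± 0.106), PER2 (2.56 ± 0.09), CRY2 (2.31 ± 0.0588), DBP (2.19 ± 0.14) and PER3 (0.606 ± 0.0408). There the ranges overlapped between TEF and PER1, PER1 and CLOCK, and CRY2 and DBP. CRY1 and the REV-ERB genes held the top 3 places and PER3 the lowest in both groups. PER2 stood in place 4 with GNF5 and in place 7 with DMSO.

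**Figure D3:**
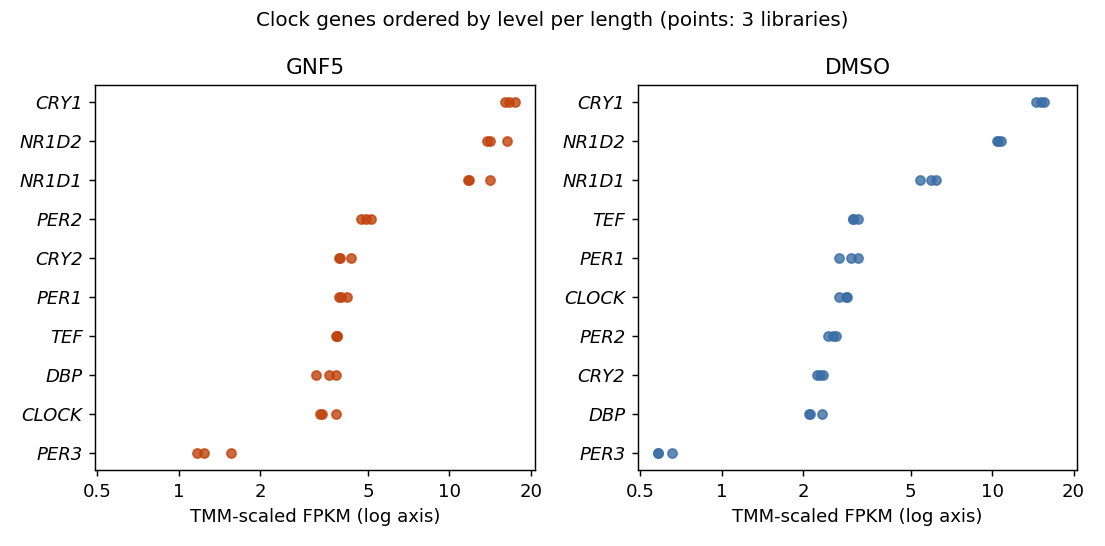
TMM-scaled FPKM of the 10 clock genes on log axes, ordered by mean level within GNF5 libraries and within DMSO libraries, with 3 points per gene. The top 3 genes and the lowest, PER3, are shared between the groups, while PER2 stands higher in the order with GNF5.

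The other transcription factors of the clock changed in both directions. Of 11 such genes 10 were tested, and 4 rose and 5 fell, with a median log2 fold change of -0.16, where 31.0% of all tested genes rose and 30.7% fell. BMAL1, the partner of CLOCK, had 47.1, 45.3 and 43.7 CPM in GNF5 libraries, against 52.8, 49.5 and 51.5 CPM in DMSO libraries. BMAL1 fell by a small amount, with no overlap between groups (log2 fold change -0.18 ± 0.045, edgeR adjusted p = 0.00121). Its relative BMAL2 (-0.33 ± 0.048), the ROR receptors RORA (-0.33 ± 0.095) and RORB (-0.15 ± 0.043), which activate BMAL1, and the E-box repressor BHLHE40 (-0.36 ± 0.048) also fell. RORA was the one whose groups overlapped, at 13.0, 10.6 and 9.96 CPM in GNF5 libraries, against 12.4, 15.9 and 13.8 CPM in DMSO libraries.

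HLF, NFIL3 and CIART were among the factors that rose. HLF, the PAR bZIP relative of DBP and TEF, had 9.23, 6.38 and 7.39 CPM in GNF5 libraries, against 4.44, 4.68 and 4.03 CPM in DMSO libraries, a log2 change of 0.81 ± 0.12 (edgeR adjusted p = 5.75e-07). DBP, TEF and HLF were therefore all higher. NFIL3, the D-box repressor, rose by 0.67 ± 0.053 (edgeR adjusted p = 8.50e-12), and CIART, a repressor of CLOCK and BMAL1 known from mice, by 0.57 ± 0.076 (edgeR adjusted p = 1.82e-07). BHLHE41 had 16, 8 and 6 counts in GNF5 libraries, against 9, 28 and 16 in DMSO libraries, and was not called (-0.67 ± 0.46, edgeR adjusted p = 0.209). The promoter table held 10 of the 11 other factors. Of these, CIART, BHLHE40 and BHLHE41 held CACGTG (8.77% of all genes). CIART rose, BHLHE40 fell and BHLHE41 was not called. BMAL1 and NFIL3 held AGGTCA, RORB held the D-box, and HLF held the full TGACGTCA. HLF and NFIL3 held the part TGACG, and 0 of these 10 factors held CACGTT (6.44% of all genes) or TGATGNAA.

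**Figure D4:**
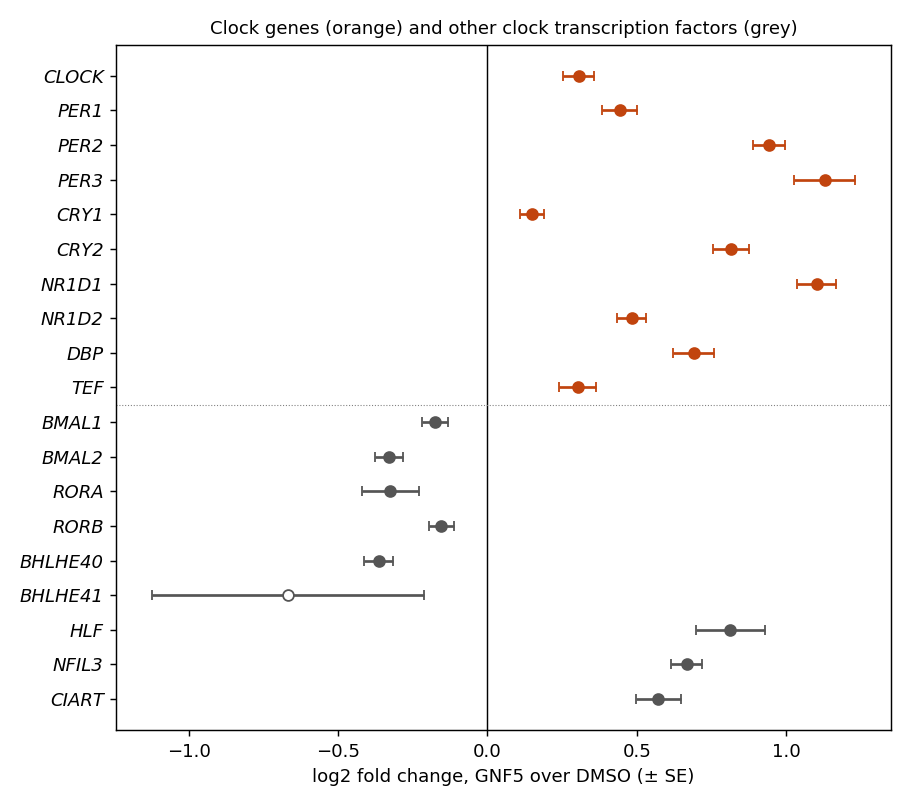
Log2 fold changes of GNF5 over DMSO with their SE on the horizontal axis for the 10 clock genes (orange) and 9 other clock transcription factors (grey), with filled points for genes that passed the edgeR test. The 10 clock genes all lie above 0, from 0.15 for CRY1 to 1.13 for PER3, while BMAL1, BMAL2, RORA, RORB and BHLHE40 lie below 0.

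Genes that act on the PER and CRY proteins were mixed. Of 25 kinases, phosphatases and ubiquitin ligase genes, 9 rose, 9 fell and 7 did not pass, with a median log2 fold change of -0.03. Both shares lie near those of all tested genes, 31.0% higher and 30.7% lower. RBX1, the RING subunit of the cullin ligases that break down PER and CRY, fell by 0.76 ± 0.046 on the log2 scale (edgeR adjusted p = 2.41e-14). PPP1CA, a catalytic subunit of protein phosphatase 1, and PPP5C, a phosphatase that acts on casein kinase 1, fell (-0.57 ± 0.036 and -0.53 ± 0.036), as did the CUL4 adaptor DDB1 (-0.41 ± 0.032). The PER kinase CSNK1D rose slightly (0.13 ± 0.033), whereas its relative CSNK1E (-0.03 ± 0.034) did not pass. Both were named after their values were seen.

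Co-regulators of the clock complexes also went both ways. Of 20, 6 rose, 9 fell and 5 did not pass (median log2 fold change -0.07), beside 31.0% higher and 30.7% lower among all tested genes. NCOR1, the corepressor through which REV-ERB receptors act, rose by 0.58 ± 0.040 (edgeR adjusted p = 3.64e-13), and TBL1XR1 of the same complex rose by 0.33 ± 0.036. HDAC3, the deacetylase of that complex, named after its values were seen, fell (-0.37 ± 0.043). SFPQ and DHX9, proteins found in mouse PER complexes, fell (-1.05 ± 0.035 and -0.84 ± 0.032).

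Of 12 genes that carry cAMP and glucocorticoid signals to PER genes, 6 rose, 2 fell and 4 did not pass (median log2 fold change 0.17), against 31.0% higher and 30.7% lower among all genes. CRTC3, a coactivator of CREB, had 44.1 ± 2.43 CPM with GNF5 and 24.4 ± 0.454 with DMSO, which is a log2 difference of 0.86 ± 0.050 (edgeR adjusted p = 8.39e-15). The glucocorticoid receptor NR3C1 rose by 0.55 ± 0.042, and the protein kinase A subunits moved apart, PRKACB higher (0.40 ± 0.044) and PRKACA lower (-0.76 ± 0.039). The other gene that fell was the kinase SIK3 (-0.14 ± 0.044), which holds CRTC coactivators out of the nucleus and was named after its values were seen.

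Of 13 known clock outputs, 10 rose and 3 fell, with a median log2 fold change of 0.42. Of all tested genes, 31.0% rose and 30.7% fell, and their median was 0.01. The outputs were also listed with earlier results of these data known. PPARGC1A, a coactivator that works with ROR receptors in mice, had 29.8 ± 1.38 CPM with GNF5 and 9.85 ± 1.05 with DMSO, which is a log2 difference of 1.597 ± 0.069 (edgeR adjusted p = 9.22e-18). The lipid receptor PPARA had 27.9 ± 1.7 CPM with GNF5 and 10.5 ± 0.531 with DMSO, which is a log2 difference of 1.41 ± 0.065 (edgeR adjusted p = 3.61e-17). KLF15, a rhythmic factor of mouse heart and liver, had 164, 88 and 102 counts in GNF5 libraries, against 8, 5 and 6 counts in DMSO libraries. KLF15 was thus near the detection limit with DMSO, and its log2 fold change of 4.32 ± 0.30 (edgeR adjusted p = 3.26e-13) rests on those few counts. CDKN1A, encoding the cell cycle inhibitor p21, fell (-0.75 ± 0.034). The other two that fell, named after their values were seen, were the RNA regulator NOCT (-0.37 ± 0.059) and the repressor KLF10 (-0.60 ± 0.043).

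**Figure D5:**
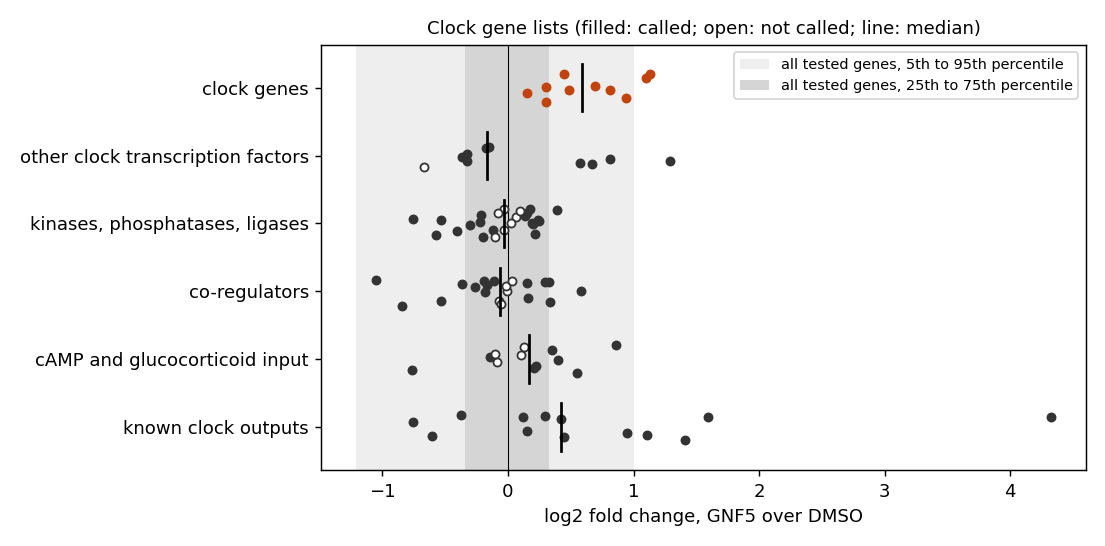
Log2 fold changes of GNF5 over DMSO on the horizontal axis for each tested gene of 6 clock lists, with filled points for genes that passed the edgeR test, a line at each median, and grey bands for the central ranges of all 20734 tested genes. The clock genes all lie to the right of 0 with a median of 0.59, and the lists of enzymes and co-regulators centre near 0.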

How the data were processed

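RNA sequencing counts of 3 GNF5 and 3 DMSO libraries were used as deposited, with groups and replicate numbers from the labels. The authors made these counts of read pairs with featureCounts 1.6.1, per the file headers, reverse-stranded, over exons summed by gene in Ensembl release 101 of GRCh38, leaving out multi-mapped reads and reads shared by gene models by default. Trim Galore, STAR, HTSeq, DESeq2 and the build GRCh37 also stand in the submitters' processing notes, with no role given, and the headers were followed. Symbols matched 60401 of 60671 IDs. A gene with 3 counts lay at 0.0494 to 0.065 CPM, a limit that covers counting error only.

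All genes were fitted together with edgeR 4.0.16 in R 4.3.3 (TMM, default expression filter, robust quasi-likelihood test, Benjamini-Hochberg adjustment over 20734 genes, called under 0.05). Before that, the fit was tested on simulated data in which most genes were unchanged. In the real data 61.6% of tested genes were called, a setting that the simulation did not cover. SEs were back-calculated from the F statistic. FPKM used the deposited exon lengths. No set test was run. The genes and lists were chosen with earlier results of these data known. Named are all 10 clock genes, every tested factor of the second list, and up to 4 called genes of lowest p plus the largest change in each other list. Some genes of these lists are counted but not reported by name here. Alternatives were DESeq2 1.42.0 (size factors, and its test), upper-quartile factors, other filters, limma voom 3.58.1, glmTreat, a replicate block and leaving out each library. Replicates of a group were not copies of one library, since the chi-square between their counts was 3.18 to 8.76 per degree of freedom.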

Additional observations from a re-analysis of the deposited data

How the results depend on the processing

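All 10 clock genes were called higher under 13 of 14 alternatives, and under the glmTreat test against a 1.5-fold change 4 were. Under that test 1240 of all genes were higher and 1560 lower, and the called genes numbered 1 higher and 0 lower among the other clock transcription factors, 0 and 1 among the kinases, phosphatases and ligases, 0 and 2 among the co-regulators, 1 and 1 among the cAMP and glucocorticoid genes, and 4 and 1 among the outputs. These counts are lower by construction, since a larger change is asked for. Other alternatives also moved some list counts. Outputs called higher numbered 10 in the main fit and 8 under the stricter filter. Co-regulators called lower numbered 9 in the main fit and 11 with upper-quartile factors. The weakest call, CRY1, had a log2 fold change of 0.11 to 0.18 and an edgeR, DESeq2 or limma adjusted p of 0.00111 to 0.0271 over its alternatives. Leaving out each library in turn changed no call among the 10. The log2 difference in the NFIL3 to DBP ratio changed sign, from -0.089 to 0.018 over the libraries left out; the cause was not tested. Other scalings moved the median of all genes from 0.0057 to 0.000046 and -0.020.

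Same-numbered libraries of the groups did not deviate together (r = -0.016, 0.016 and 0.00082), so the numbers were not taken as pairs. With the replicate block 6279 genes were higher and 6196 lower, and 10 clock genes were higher. Plain FPKM without TMM factors changed the place of 0 clock genes in the level order of either group. BHLHE41 was not tested under the stricter filter. Depth limits NPAS2, BHLHE41 and KLF15 most, each with under 30 counts in at least 1 library.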
